A study of Mus musculus with 27 samples.

Results

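The amino acid stress response is represented here by 10 genes: the regulator Atf4, the stress effectors Chac1, Trib3, Ddit3 and Ddit4, the supply enzymes Asns, Psat1, Phgdh and Shmt2, and the transporter Slc7a11. They were chosen by name among 23279 genes in the deposited table, with earlier results of these data known. All 10 reached at least 1 CPM (counts per 1000000 mapped reads) in at least 3 libraries, Chac1 with a limit given below. All were thus among the 14438 genes tested. The study grew limb bud-like tissue from mouse embryonic stem (ES) cells and compared its mesenchyme with embryonic tissues by RNA-seq. ES–FLB (forelimb-type) and ES–HLB (hindlimb-type) cells came from aggregates of 1 line, EB5 Hand2::GFP +/-, that had received BMP4 and Matrigel and later hydrocortisone, a glucocorticoid, with the BMP inhibitor LDN193189 and Wnt3. Retinoic acid was given for the forelimb type and a retinoic acid antagonist for the hindlimb type. On day 9 both were trypsinized and sorted for the Hand2 reporter, so only Hand2-expressing mesenchyme was measured. The embryonic groups were whole, unsorted tissues of Slc:ICR embryos: forelimb buds (FLBs) and hindlimb buds (HLBs) at an early stage labelled E10.0 and at E10.5, and, at E10.5, the heart (labelled cardiac, Ca), the tail bud (TB) and the branchial arch (BA). The labels give both early groups 1 stage, whereas the study's text places the early FLBs at a younger stage than the early HLBs, so in comparisons of early limb types age and type cannot be told apart. Each group had 3 libraries, and no label says whether those of 1 group were separate embryos or cultures, so p-values measure the spread between these libraries, which may be technical. Replicate 2 of the E10.5 HLBs, with almost no values on several chromosomes, was left out, which left 26 libraries. ES–LB cells and limb buds differed at once in genetic background, culture, dissociation, sorting and cell makeup, and these cannot be told apart.

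Cells that run short of amino acids, or of protein folding capacity in the endoplasmic reticulum (ER), phosphorylate the translation factor eIF2. General translation then falls while the Atf4 mRNA is translated more, so that the ATF4 protein is set largely at translation and the Atf4 mRNA is not a measure of it. ATF4 binds C/EBP-ATF composite sites and turns on genes for amino acid synthesis, uptake and tRNA charging, and, when stress lasts, genes such as Ddit3, Trib3 and Chac1 that limit growth or promote cell death.

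A composite site with the letters TGATGNAA was searched on both strands of the RefSeq promoter windows (GRCm38.p6, 250 bases before to 50 after a gene's start). It was found in 3.97% of the 32851 windows and in 4.51% of the 27025 genes with a window. Among the 10 genes, it was found in the windows of Asns, Chac1, Slc7a11 and Trib3. All 10 had a window, and the 1 match of Trib3 lay after the start. The 250 bases before the start are printed for the 3 genes with a match there, since in the ES–LB cells described below Chac1 was higher than in early limb buds and Asns was lower, although both windows hold these letters. Capitals mark the match. Asns lies on the minus strand of chromosome 6 (chr6:7693210-7693459), Chac1 on the plus strand of chromosome 2 (chr2:119350992-119351241) and Slc7a11 on the minus strand of chromosome 3 (chr3:50443614-50443863).
Asns: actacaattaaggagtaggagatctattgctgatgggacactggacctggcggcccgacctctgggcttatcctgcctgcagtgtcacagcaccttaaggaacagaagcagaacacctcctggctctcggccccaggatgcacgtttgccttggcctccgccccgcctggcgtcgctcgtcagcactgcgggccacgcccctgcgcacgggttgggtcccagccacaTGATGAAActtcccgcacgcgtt
Chac1: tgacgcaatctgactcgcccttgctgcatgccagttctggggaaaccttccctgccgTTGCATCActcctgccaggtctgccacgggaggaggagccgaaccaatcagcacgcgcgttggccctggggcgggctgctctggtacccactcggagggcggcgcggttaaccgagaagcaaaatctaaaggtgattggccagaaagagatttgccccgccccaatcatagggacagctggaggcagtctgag
Slc7a11: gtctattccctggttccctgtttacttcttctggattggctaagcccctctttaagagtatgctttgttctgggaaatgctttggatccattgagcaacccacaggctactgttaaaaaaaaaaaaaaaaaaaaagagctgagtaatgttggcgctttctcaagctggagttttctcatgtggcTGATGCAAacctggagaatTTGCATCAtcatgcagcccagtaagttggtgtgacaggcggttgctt
Slc7a11 held 2 matches, 1 on each strand, within 66 bases of the start of this window's transcript, while the RefSeq gene (chr3:50364936-50499087) begins farther upstream. The match of Asns began 23 bases before the start, and that of Chac1 lay on the reverse strand 193 to 186 bases before it. The windows of Atf4, Ddit3, Ddit4, Psat1, Phgdh and Shmt2 held no match to these letters.

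The libraries held about 5543746 to 22142313 reads, as the spacing of their low values gives it, of which the early limb buds held at least 19642258 and the E10.5 limb buds at most 5908858, so stage and depth cannot be told apart. The ES–LB libraries held 6569902 to 7879877 reads. Comparisons of ES–LB cells with early limb buds thus also differ in depth, which cannot be told apart from the rest. Limb mesenchyme markers (9 genes, Prrx1 and Hand2 among them) summed to 1252 to 1777 scaled CPM in ES–LB cells and limb buds, but single markers went apart. In ES–FLB cells 3 of the 9 were higher and 3 lower than in early FLBs and 2 higher and 6 lower than in E10.5 FLBs, and in ES–HLB cells 4 were higher and 5 lower than in early HLBs and 3 higher and 5 lower than in E10.5 HLBs, where the median differences were -1.18 and -1.22. Msx1, a marker of undifferentiated limb mesenchyme, was lower than in early limb buds (-2.41 and -1.52), and Tbx5, the forelimb factor, was higher in ES–HLB cells than in early HLBs (1.54), both named after their values were seen. Endothelial markers (8 genes) summed to 28.1 to 50.0 in ES–LB cells and 324 to 482 in limb buds, blood markers (8 genes) to 5.61 to 158 against 2309 to 6783, and surface ectoderm markers (9 genes) to 98.6 to 200.1 against 291 to 509, with none of these markers at 0 in every library of a group. Pluripotency markers (6 genes) summed to 15.7 to 23.0 in ES–FLB cells, 65.5 to 95.6 in ES–HLB cells and at most 2.38 in limb buds, where up to 4 of them were at 0. The part of these other cells in the results below was not tested, and in bulk tissue fewer cells of a type and less RNA per cell cannot be told apart. All levels below are CPM after scaling of the libraries by a trimmed mean of log ratios, and all differences are in log2(scaled CPM + 0.5), with the standard error (SE) and limma's p-value adjusted over the 14438 genes.

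Without this scaling, the median of all genes moved up by 0.30 in ES–FLB cells against early FLBs, by 0.25 in ES–HLB cells against early HLBs, by 0.15 against E10.5 HLBs, and by 0.23 and 0.10 from the early to the E10.5 stage of FLBs and HLBs, and down by 0.11 in Ca. The share of called genes that were higher moved with it, from 46.1% to 62.7%, 46.2% to 61.3%, 48.0% to 59.3%, 40.2% to 66.6% and 33.3% to 58.4% in the first 5 of these comparisons. It moved from 43.9% to 60.8% between the early limb types, from 56.5% to 28.5% between those at E10.5, and from 56.9% to 44.8% for the change of the limb type difference in vitro. Scaling by the median of ratios gave 46.4% between the E10.5 limb types and 43.5% from early to E10.5 HLBs, and moved the median of all genes by 0.10 in both comparisons of ES–LB cells with early limb buds. None of the 75 differences of the 10 genes that passed the test in the 13 comparisons changed direction under either setting.

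To ask how the sorted ES–LB mesenchyme stood in this response, it was set against limb buds of the same type and both stages. The 4 stress effectors were higher in ES–LB cells in all 4 comparisons, whereas Atf4 and Phgdh were lower in all 4, and Asns, Psat1 and Shmt2 were lower than in early limb buds of both types. Of the 10 genes, 4 were higher and 6 lower in ES–FLB cells than in early FLBs, where 35.3% and 41.4% of all genes tested were called, and 4 were higher and 5 lower in ES–HLB cells than in early HLBs, where 34.8% and 40.5% were. Against the E10.5 stage, 4 were higher and 2 lower in the forelimb type (background 32.9% and 35.7%) and 5 higher and 4 lower in the hindlimb type (32.9% and 35.6%). Most genes differed between the cells and the tissues, and these counts of 10 genes did not stand clear of that background. Chac1, counted as higher in each comparison here and by the 2-fold rule below, passed the filter only through the ES–LB cells. With a change of at least 2-fold also required, 4 genes were higher and 2 lower than in early FLBs (background 15.8% and 13.0%) and 4 higher and 2 lower than in early HLBs (14.8% and 10.8%). Against E10.5 FLBs 3 were higher by that rule and against E10.5 HLBs 4 (background 11.2% and 13.8%), and none of the 10 was lower by 2-fold, whatever its p (background 7.44% and 6.55%). The median difference of the 10 genes was -0.77 and -0.28 against early FLBs and HLBs and 0.14 and 0.42 against the E10.5 stage, where the medians of all genes lay between -0.05 and 0.00.

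Chac1 encodes an enzyme that degrades glutathione. ES–FLB cells had 8.81, 5.49 and 7.64 CPM and ES–HLB cells 7.11, 3.34 and 5.74. Early FLBs had 0.74, 0.57 and 0.59 CPM and early HLBs 0.56, 0.54 and 0.51, and the E10.5 limb buds ranged from 0.18 to 1.55. All 6 ES–LB libraries thus lay above all 11 limb bud libraries. The share of all genes tested that separate without overlap was not counted. Statements of no overlap, here and for the genes and comparisons below, are thus a description. Outside the ES–LB cells Chac1 reached 1 CPM only in Ca replicate 1 (1.28) and E10.5 FLB replicate 3 (1.55). It thus passed the filter of 1 CPM in 3 libraries only through the ES–LB cells, where it was high. Its tests of ES–LB cells against limb buds are therefore not independent of that filter, and their p-values are a description. The mean was 11.5-fold higher in ES–FLB cells than in early FLBs (log2 difference 2.76, SE 0.28, adjusted p = 1.05e-10), and ES–HLB cells lay above early HLBs by 2.45 (SE 0.28, adjusted p = 1.65e-09). At such low levels the 0.5 added before the logarithm shrinks the difference, so 2.76 is less than the log2 of 11.5. The same holds for Trib3 below. Against E10.5 the differences were 2.68 (SE 0.28, adjusted p = 4e-10) and 2.75 (SE 0.31, adjusted p = 2.46e-09). The E10.5 HLBs held only about 3 and 1 Chac1 reads, against about 130 in the 3 ES–HLB libraries, which gives a ratio of 15.2 (exact 95% interval 5.80 to 56.7, counting error only).

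Trib3, a pseudokinase induced late in the response that restrains ATF4 and AKT, was also low in limb buds. ES–FLB cells had 6.08, 4.85 and 6.45 CPM and ES–HLB cells 6.61, 6.97 and 6.56. The 11 limb bud libraries ranged from 0.53 to 2.198, below every ES–LB library. The differences were 1.43 and 1.81 (SE 0.25, adjusted p = 7.34e-06 and 1.38e-07) against early FLBs and HLBs, and 1.90 (SE 0.25) and 2.11 (SE 0.28) against the E10.5 stage (adjusted p = 8.37e-08 and 8.77e-08). Ddit3 encodes CHOP, the transcription factor tied to cell death under lasting ER stress. It stood at 13.2, 12.5 and 15.0 CPM in ES–FLB cells, at 11.1, 8.22 and 11.4 in ES–HLB cells, and at 3.56 to 6.58 in the limb buds, again without overlap. Its differences were 1.56 and 1.22 against early FLBs and HLBs (SE 0.17, adjusted p = 5.34e-10 and 8.08e-08), and 1.31 (SE 0.17, adjusted p = 3.59e-08) and 1.23 (SE 0.19, adjusted p = 7.87e-07) against E10.5. Ddit3 shares 68 bases with Mars on the opposite strand, and Shmt2, described below, 32 bases with Ndufa4l2. The strand setting of the counting is not given in the sources used here.

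Ddit4 encodes REDD1, an inhibitor of mTORC1 that ATF4, hypoxia and glucocorticoids can each induce. ES–FLB cells had 166, 130.4 and 173 CPM and ES–HLB cells 189, 136 and 200.7. Early FLBs had 41.0, 37.3 and 29.6 CPM, early HLBs 28.4, 26.5 and 24.1, E10.5 FLBs 82.2, 86.6 and 100.2, and E10.5 HLBs 57.3 and 57.8. The ES–LB cells were highest without overlap, and the E10.5 limb buds lay between them and the early ones. The mean was 4.36-fold and 6.65-fold higher than in early FLBs and HLBs (2.11 and 2.69, SE 0.15, adjusted p = 1.1e-10 and 2.68e-12). It was 1.75-fold higher than in E10.5 FLBs (0.80, SE 0.15, adjusted p = 0.000104) and 3.04-fold higher than in E10.5 HLBs (1.58, SE 0.17, adjusted p = 7.85e-08). Chac1, Ddit3 and Ddit4 were lowest in replicate 2 of each ES–LB type, which was also the least deep library of its type (7212043 and 6569902 reads). Without replicate 2 of either type, no call of the 4 effectors against limb buds was lost.

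**Figure D1:**
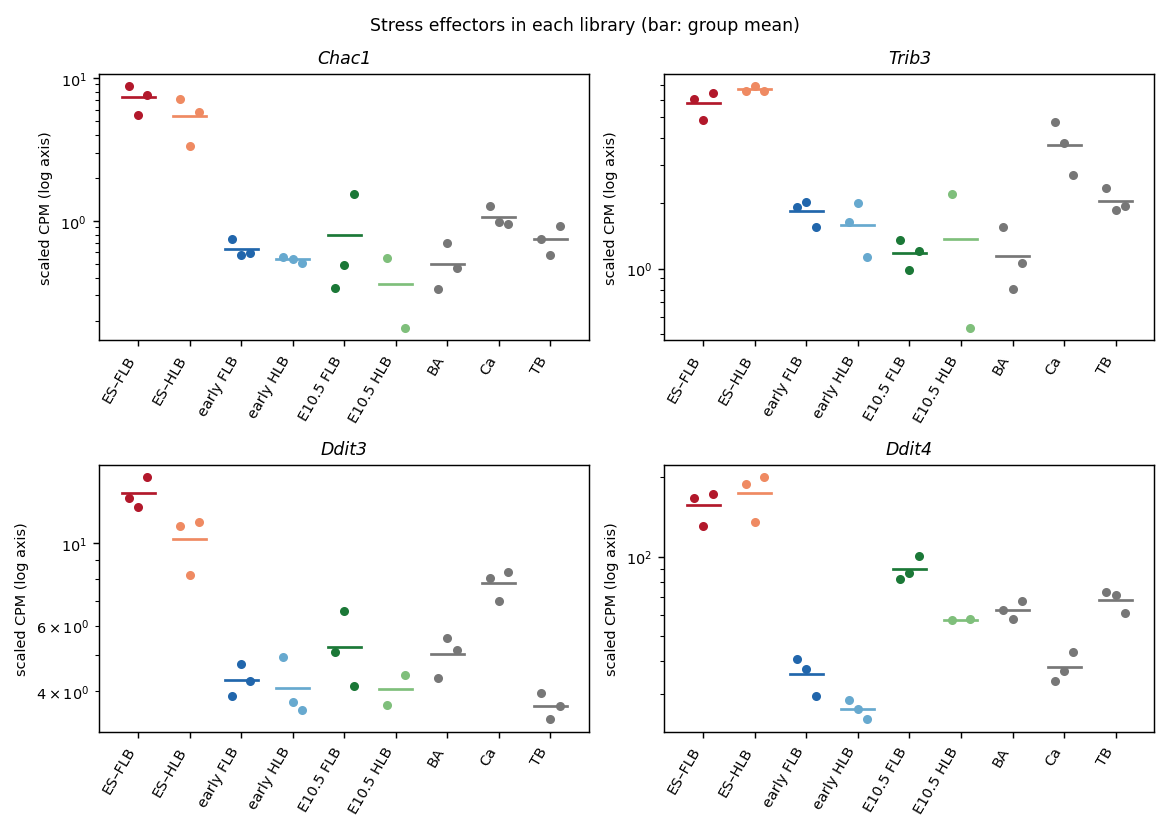
Scaled CPM (log axis) of Chac1, Trib3, Ddit3 and Ddit4 in each of the 26 libraries (points) by group, with the group mean as a bar. For Chac1, Trib3, Ddit3 and Ddit4 all 6 ES–LB libraries lie above all 11 limb bud libraries, and for Ddit4 the E10.5 limb buds (57.3 to 100.2) lie above the early ones (24.1 to 41.0). The share of all genes that separate in this way was not counted.

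Atf4, the transcription factor of the pathway, moved the other way. ES–FLB cells had 135, 119.9 and 124 CPM and ES–HLB cells 117, 123 and 130.4. Early limb buds of both types had 263 to 282 CPM, E10.5 FLBs 178, 192 and 175, and E10.5 HLBs 219 and 200.7. Every ES–LB library was below every limb bud library. The difference was -1.12 against the early stage of either type (SE 0.05, adjusted p = 1.01e-18 and 1.49e-18), and it was -0.53 against E10.5 FLBs (SE 0.05, adjusted p = 2.74e-10) and -0.76 against E10.5 HLBs (SE 0.06, adjusted p = 8.3e-13). Higher effector mRNAs thus stood beside a lower Atf4 mRNA, and across the 9 group means each effector ran against Atf4 (Pearson r of log2 levels from -0.90 to -0.73) and with the other effectors (0.58 to 0.93). Depth and origin varied over the 9 groups and were shared by some of them, so the correlations are a description.

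The enzymes that supply amino acids were nearer to the E10.5 than to the early limb buds. Phgdh and Psat1 catalyse the first steps of serine synthesis, Shmt2 converts serine to glycine in mitochondria, and Asns makes asparagine. Psat1 had 99.3, 102 and 109 CPM in ES–FLB cells and 123, 125 and 117 in ES–HLB cells. Early FLBs had 281, 305 and 288 CPM of Psat1 and early HLBs 254, 262 and 269.7, whereas E10.5 FLBs had 116, 111 and 111 and E10.5 HLBs 166 and 162. The difference was -1.49 against early FLBs and -1.10 against early HLBs (SE 0.09, adjusted p = 2.25e-13 and 7.33e-11). It was -0.43 against E10.5 HLBs (SE 0.10, adjusted p = 0.000508) and -0.13 against E10.5 FLBs, which did not pass the test (95% interval -0.31 to 0.06, adjusted p = 0.208).

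Asns had 64.7, 63.7 and 59.6 CPM in ES–FLB cells and 74.3, 76.9 and 83.9 in ES–HLB cells. It ranged from 109 to 134 CPM in early limb buds, with 56.0, 63.4 and 52.7 in E10.5 FLBs and 91.0 and 86.1 in E10.5 HLBs. ES–LB cells were below the early limb buds without overlap (-0.87 and -0.69, SE 0.08, adjusted p = 4.46e-12 and 1.05e-09), and against E10.5 neither difference passed the test (0.13, interval -0.02 to 0.28, adjusted p = 0.129, and -0.18, interval -0.35 to 0.00, adjusted p = 0.0644). Shmt2 had 109, 100.9 and 109 CPM in ES–FLB cells and 118, 118 and 106 in ES–HLB cells. Early FLBs had 217, 222 and 192 CPM, early HLBs 169, 170.0 and 186, E10.5 FLBs 96.4, 100.3 and 94.3, and E10.5 HLBs 133 and 122. Shmt2 was lower than at the early stage (-0.98 and -0.61, SE 0.06, adjusted p = 8.18e-16 and 8.5e-11), did not pass the test against E10.5 FLBs (0.13, interval 0.00 to 0.25, adjusted p = 0.0604), and was slightly lower than in E10.5 HLBs (-0.16, SE 0.07, adjusted p = 0.0368). That last call was lost under several settings, for example with CPM as deposited (-0.01, adjusted p = 0.922) and without replicate 1 of the E10.5 HLBs (-0.10, adjusted p = 0.342) or replicate 3 of the ES–HLB cells (-0.11, adjusted p = 0.183).

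Phgdh was lower than at both stages in both limb types, which held for Psat1 and Shmt2 in the hindlimb type only. ES–FLB cells had 125, 136 and 133 CPM and ES–HLB cells 141, 123 and 129. The early limb buds ranged from 215 to 267 CPM and the E10.5 limb buds from 177 to 225, with no overlap with the ES–LB cells. The differences were -0.78 and -0.98 against early FLBs and HLBs (SE 0.07, adjusted p = 1.1e-10 and 1.08e-12), -0.47 against E10.5 FLBs (SE 0.07, adjusted p = 1.86e-06) and -0.75 against E10.5 HLBs (SE 0.08, adjusted p = 4.64e-09).

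Slc7a11 encodes the cystine and glutamate exchanger xCT, which feeds glutathione synthesis. It had 14.2, 18.8 and 16.2 CPM in ES–FLB cells but 29.3, 28.2 and 29.1 in ES–HLB cells. Early FLBs had 30.7, 29.2 and 24.1 CPM, early HLBs 24.3, 31.5 and 27.5, E10.5 FLBs 15.4, 13.8 and 15.0, and E10.5 HLBs 14.3 and 14.2. ES–FLB cells thus lay below early FLBs (-0.76, SE 0.12, adjusted p = 1.21e-06) and among E10.5 FLBs (0.14, interval -0.10 to 0.39, adjusted p = 0.303), whereas ES–HLB cells lay among early HLBs (0.06, interval -0.18 to 0.31, adjusted p = 0.659) and above E10.5 HLBs (0.99, SE 0.13, adjusted p = 9.82e-08). In GENCODE, where the gene runs farther downstream than in RefSeq, it overlaps an antisense gene over 8812 bases and 3 processed pseudogenes, all 4 outside the RefSeq gene. It also overlaps Gm37498 on the same strand over 4002 bases, and Gm37498 reaches into the RefSeq gene.

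**Figure D2:**
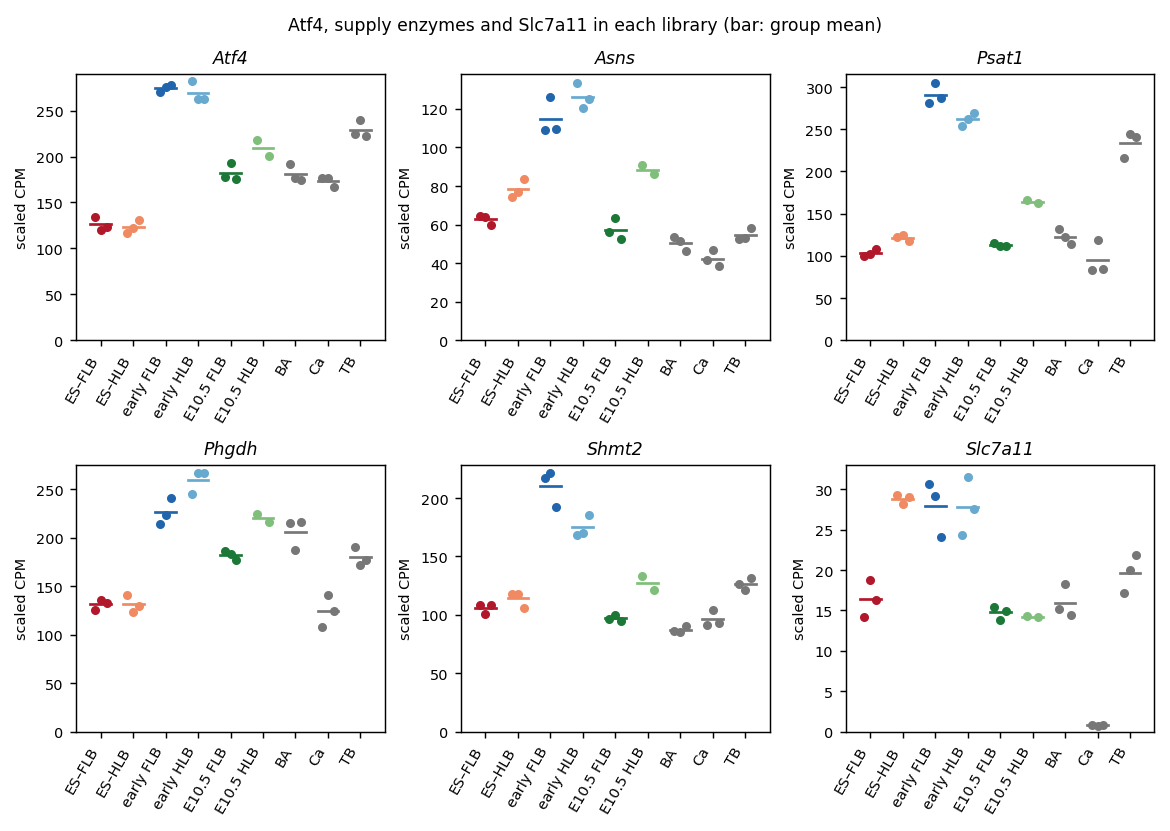
Scaled CPM of Atf4, Asns, Psat1, Phgdh, Shmt2 and Slc7a11 in each of the 26 libraries (points) by group, with the group mean as a bar and axes from 0. Early limb buds are highest for Atf4 (263 to 282), Asns (109 to 134), Psat1 (254 to 305) and Shmt2 (169 to 222), and Slc7a11 is below 1 CPM in the heart.

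**Figure D3:**
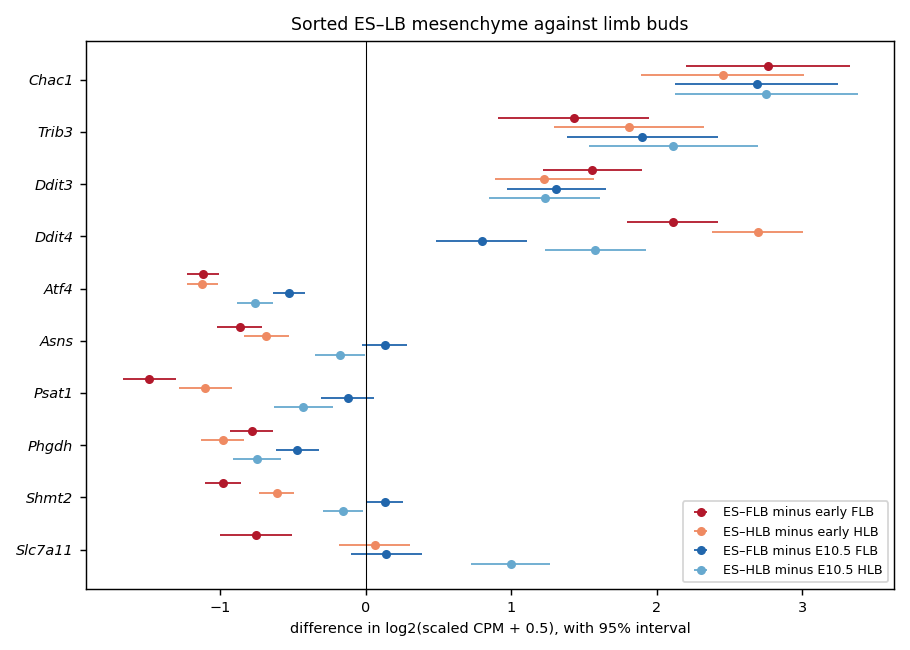
Difference in log2(scaled CPM + 0.5) between ES–LB cells and limb buds of the same type at the early stage and at E10.5, with 95% intervals from the limma fit. Chac1, Trib3, Ddit3 and Ddit4 lie right of 0 in all 4 comparisons (0.80 to 2.76), Atf4 and Phgdh left of 0 in all 4 (-1.12 to -0.47), and Asns, Psat1 and Shmt2 lie farther left against early than against E10.5 limb buds.

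The early and E10.5 stages of the limb buds were then compared directly, over unequal intervals if the early FLBs were the younger, so the sizes in FLBs and HLBs are given side by side and were not compared. From early to E10.5, 7 of the 10 genes passed the test in FLBs (background 60.4%, in either direction) and the same 7 in HLBs (background 31.5%). In both limb types Atf4, Asns, Psat1, Phgdh, Shmt2 and Slc7a11 were lower at E10.5 and Ddit4 was higher. Psat1 fell by 1.36 in FLBs and by 0.67 in HLBs (adjusted p = 4.62e-12 and 1.45e-05), Shmt2 by 1.11 and 0.46 (adjusted p = 2.72e-16 and 4.13e-06), and Asns by 1.00 and 0.51 (adjusted p = 6.53e-13 and 2.01e-05). Slc7a11 fell by 0.90 and 0.93 (adjusted p = 1.16e-07 and 2.59e-06) and Atf4 by 0.59 and 0.36 (adjusted p = 3.04e-11 and 1.88e-05). Phgdh changed least (-0.31 and -0.24, adjusted p = 0.000511 and 0.0263), and with CPM as deposited it did not pass in either limb type (-0.07, adjusted p = 0.434, and -0.13, adjusted p = 0.257). Its call in HLBs was also lost without early HLB replicate 2 or 3 or E10.5 HLB replicate 1 or 3 (adjusted p = 0.0708 to 0.164). Ddit4 rose by 1.31 in FLBs and 1.12 in HLBs (SE 0.15 and 0.17, adjusted p = 2.86e-07 and 4.23e-05). Chac1, Trib3 and Ddit3 did not pass in either limb type, at means of 0.36 to 0.79, 1.18 to 1.84 and 4.05 to 5.27 CPM over the 4 limb bud groups. The median difference of the 10 genes was -0.53 in FLBs and -0.33 in HLBs, where that of all genes was -0.08 and -0.06.

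Hindlimb and forelimb types were compared within ES–LB cells and within each labelled stage, the early one with the doubt about age given above. In ES–HLB against ES–FLB cells, 2 genes were higher and 0 lower by limma (background 10.8% and 8.89%, with 1 gene, Ddit3, lower at an unadjusted p under 0.05 and 1 with voom weights): Slc7a11 (0.80, SE 0.12, adjusted p = 6.19e-06) and Asns (0.32, SE 0.08, adjusted p = 0.00229). For both genes the 3 ES–HLB libraries lay above the 3 ES–FLB libraries. In early HLBs against early FLBs, 0 genes were higher by limma (1, Phgdh, at an unadjusted p under 0.05, and 1 with voom weights) and 2 lower (background 8.34% and 10.7%), Shmt2 (-0.26, SE 0.06, adjusted p = 0.00171) and Ddit4 (-0.43, SE 0.15, adjusted p = 0.0496). The call of Ddit4 was lost under 4 settings other than the stricter threshold and without any of 5 of the 6 libraries, early FLB replicates 1 and 2 and early HLB replicates 1 to 3 (adjusted p = 0.0687 to 0.217). At E10.5, 5 genes were higher and 1 lower in HLBs (background 12.7% and 9.79%). Asns (0.63, SE 0.08, adjusted p = 2.93e-06), Psat1 (0.54, SE 0.10, adjusted p = 0.000418) and Shmt2 (0.39, SE 0.07, adjusted p = 9.7e-05) were higher, with both HLB libraries above the 3 FLB libraries for each. Phgdh (0.27, adjusted p = 0.0151) and Atf4 (0.20, adjusted p = 0.013) were higher and Ddit4 lower (-0.63, adjusted p = 0.0106). With CPM as deposited, Atf4 and Phgdh did not pass (0.12, adjusted p = 0.169, and 0.19, adjusted p = 0.125). Leaving out E10.5 FLB replicate 3 or E10.5 HLB replicate 1 also ended both calls (adjusted p = 0.0576 to 0.233), and leaving out either E10.5 HLB library ended that of Ddit4 (adjusted p = 0.0757 and 0.0552).

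The limb type difference itself changed between ES–LB cells and early limb buds for 3 genes, each relatively higher in the hindlimb type in vitro (background 11.4% higher and 8.61% lower, with 0 of the 10 genes lower by limma, 0 at an unadjusted p under 0.05 and 0 with voom weights). The change was 0.82 for Slc7a11 (SE 0.17, adjusted p = 0.000639), whose limb type difference was 0.80 in vitro and -0.01 in the early limb buds. It was 0.37 for Shmt2 (SE 0.09, adjusted p = 0.00205), with 0.10 in vitro and -0.26 in the early limb buds. For Psat1 it was 0.39 (SE 0.12, adjusted p = 0.0307), with 0.23 in vitro and -0.15 in the early limb buds, and that call was lost with CPM as deposited (0.33, adjusted p = 0.068) and without any 1 of early FLB replicate 2, early HLB replicates 1 and 2, ES–FLB replicates 1 and 2, and ES–HLB replicates 1 and 2 (adjusted p = 0.054 to 0.0746). With E10.5 limb buds in place of the early ones, a test added after seeing the data, 2 of the 10 genes were higher and 2 lower (background 8.44% and 8.03%). Only Slc7a11 of these 3 kept its direction (0.85, SE 0.18, adjusted p = 0.00118). Shmt2 turned to -0.29 (SE 0.09, adjusted p = 0.027), since its limb type difference was 0.39 at E10.5, and Psat1 turned to -0.30 (adjusted p = 0.123), with 0.54 at E10.5. Ddit4 (0.78, adjusted p = 0.0223) and Atf4 (-0.23, adjusted p = 0.041) passed as well. The direction for Shmt2 and Psat1 thus depended on the stage of the limb buds. The pluripotency markers, at 15.7 to 23.0 CPM in ES–FLB and 65.5 to 95.6 in ES–HLB cells, moved with the same contrast, and their part in it was not tested.

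**Figure D4:**
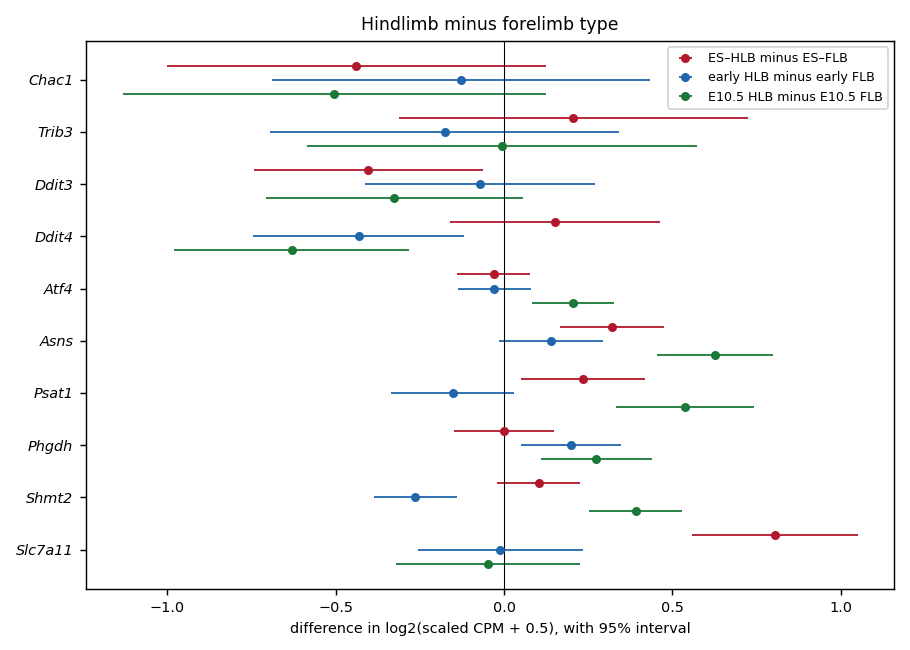
Difference in log2(scaled CPM + 0.5) between hindlimb and forelimb type for each of the 10 genes in ES–LB cells, early limb buds and E10.5 limb buds, with 95% intervals from the limma fit. Slc7a11 lies at 0.80 in ES–LB cells and at -0.01 and -0.05 in the limb buds, and Asns lies right of 0 in ES–LB cells (0.32) and at E10.5 (0.63).

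The other E10.5 tissues gave the range of these genes in the embryo. In BA against E10.5 FLBs, 0 genes were higher by limma (1 of the 10 genes, Phgdh, at an unadjusted p under 0.05, and 0 with voom weights) and 1 lower (background 11.0% and 9.70%). That gene was Ddit4, at 63.0, 57.9 and 67.8 CPM (-0.51, SE 0.15, adjusted p = 0.0198), whose call was lost without BA replicate 1 or 2 or FLB replicate 3 (adjusted p = 0.0511 to 0.0873). In TB 4 genes were higher and 2 lower (background 23.5% and 22.3%). Psat1 had 216, 245 and 241 CPM there (1.05, SE 0.09, adjusted p = 1.01e-09), and Slc7a11 (0.40), Shmt2 (0.38) and Atf4 (0.33) were higher too (adjusted p = 0.007, 3.95e-06 and 5.3e-06). Ddit3 (-0.45, adjusted p = 0.0268) and Ddit4 (-0.38, adjusted p = 0.0427) were lower in TB, and both calls were lost without TB replicate 2 or 3 or FLB replicate 2 (adjusted p = 0.0576 to 0.194), that of Ddit4 also without FLB replicate 3 (adjusted p = 0.16), and that of Slc7a11 without TB replicate 3 (adjusted p = 0.0554).

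The heart stood apart for the transporter. In Ca against E10.5 FLBs, 2 genes were higher and 5 lower (background 36.1% and 38.5%). Slc7a11 had 0.77, 0.70 and 0.81 CPM in the 3 Ca libraries and at least 13.8 in every other library (-3.60, SE 0.12, adjusted p = 1.21e-22). Trib3 had 4.72, 3.78 and 2.69 CPM in Ca (1.31, SE 0.25, adjusted p = 2.85e-05) and Ddit3 8.04, 6.99 and 8.34 (0.54, SE 0.17, adjusted p = 0.00439), the highest embryonic levels of both. Ddit4, at 33.6, 36.9 and 43.4 CPM, was lower (-1.23, SE 0.15, adjusted p = 3.64e-07), as were Phgdh (-0.56, adjusted p = 8.83e-08), Asns (-0.44, adjusted p = 5.07e-06) and Psat1 (-0.26, adjusted p = 0.00963). The call of Psat1 was lost without Ca replicate 1 or 3 (adjusted p = 0.0797 and 0.0714) and in a limma fit of only the groups compared (adjusted p = 0.13). Its groups overlapped, since Ca replicate 2 (119 CPM) lay above every E10.5 FLB library. Blood markers summed to 22636 to 32894 CPM in Ca, against 2658 to 3832 in E10.5 FLBs, and their part in these differences was not tested.

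Other parts of the pathway were counted from lists drawn up from general knowledge, but with earlier results of these data known. The counts below stand against all genes tested, of which 35.3% were higher and 41.4% lower in ES–FLB cells than in early FLBs and 34.8% and 40.5% in ES–HLB cells than in early HLBs, with 32.9% and 35.7%, and 32.9% and 35.6%, against the E10.5 stage. Counts close to these shares, as for the ATF4 targets against early FLBs, are no result about a list. Of 18 other ATF4 targets tested, 8 were higher and 7 lower in ES–FLB cells than in early FLBs, and 10 higher and 5 lower in ES–HLB cells than in early HLBs, with medians of -0.01 and 0.59. Against the E10.5 stage, 12 were higher and 3 lower, and 11 higher and 4 lower (medians 0.81 and 0.59). Vldlr, a lipoprotein receptor, rose from a mean of 11.1 ± 1.8 (SD, n = 3) to 52.1 ± 6.6 CPM in the forelimb type and from 8.26 ± 1.6 to 61.8 ± 6.9 in the hindlimb type. Sesn2, a leucine sensor that holds back mTORC1, rose from 23.3 ± 1.8 to 58.8 ± 2.8 and from 19.6 ± 0.44 to 61.7 ± 4.6 CPM. Gpt2, a mitochondrial alanine transaminase, also rose (1.45 and 0.81), whereas Cth, which makes cysteine, fell (-1.77 and -1.22).

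The serine and one-carbon genes beyond the 10 were mostly lower in ES–LB cells, at 3 higher and 9 lower of 14 against early FLBs and 4 higher and 10 lower against early HLBs (medians -1.05 and -1.09). Mthfd1l, of mitochondrial folate metabolism, was lower by 2.41 and 1.52 and Mthfd1, its cytosolic counterpart, by 1.65 and 1.30 on the log2 scale. Gldc, of glycine cleavage, was lower as well (-1.87 and -1.09). Among the higher genes were Aldh1l2 and Aldh1l1 (1.49 and 0.95) in both types and Amt in the hindlimb type (0.37), the last 2 being named after their values were seen. Aldh1l2, which oxidizes formyl groups in mitochondria, differed most of these: its mean was 33.0 ± 1.3 CPM in ES–FLB cells against 1.56 ± 0.18 in early FLBs (4.03) and 20.5 ± 2.5 against 2.65 ± 0.40 in the hindlimb type (2.74). Among 11 amino acid transporters 4 were higher and 6 lower against early FLBs and 4 higher and 5 lower against early HLBs. Slc7a3, a carrier of cationic amino acids, was higher (2.59 and 3.06) and Slc1a5, a glutamine carrier, lower (-2.79 and -2.45).

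Of 21 genes of tRNA charging and export (Xpot being the exporter), 20 were lower in ES–FLB cells than in early FLBs (41.4% of all genes). In ES–HLB cells against early HLBs 19 were lower (40.5%), and the others did not pass in either comparison (medians -0.91 and -0.69). With CPM as deposited 19 and 16 were lower and 1 and 2 higher. Against E10.5, 13 and 17 were lower and 3 and 3 higher (medians -0.17 and -0.30). The same list was lower at E10.5 than at the early stage, with 20 of 21 genes lower in FLBs and 20 in HLBs (medians -0.74 and -0.37, where 36.1% and 21.0% of all genes were lower). Wars (-1.42 and -1.18) and Rars (-1.31 and -1.01), the tryptophan and arginine enzymes, were among those lower in ES–LB cells than in early limb buds. Of 16 genes of eIF2 and its control, 5 were higher and 11 lower in each of these 2 comparisons. Eif2s1, the subunit that is phosphorylated, had 107 ± 3.9 CPM in ES–FLB cells against 381 ± 6.3 in early FLBs (-1.82), and Impact, an inhibitor of the eIF2 kinase GCN2, was higher (1.20 and 1.47).

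Of 20 genes of ER folding, induced by the ATF6 and XBP1 branches of the ER stress response, 4 were higher and 15 lower against early FLBs and 3 higher and 16 lower against early HLBs (medians -0.59 and -0.76), and the medians stayed below 0 with CPM as deposited (-0.29 and -0.51). The ER chaperone cofactor Sdf2l1 had 9.60 ± 1.3 CPM in ES–FLB cells against 36.8 ± 3.1 in early FLBs (-1.89) and 8.40 ± 1.9 against 40.5 ± 6.7 in the hindlimb type (-2.21). Among 9 NRF2 targets tested, 3 were higher and 5 lower, and 4 higher and 3 lower, with Gclm, of glutathione synthesis, lower (-1.44 and -1.31) and Nqo1 higher (1.38 and 1.43). Hypoxia targets, a list relevant to Ddit4, were 3 higher and 4 lower of 11 against early FLBs, 7 higher and 1 lower against early HLBs, and 5 and 9 higher against E10.5 FLBs and HLBs, where the others did not pass. Vegfa, the endothelial growth factor, was higher against the early stage (0.77 and 1.51). Ndrg1 was higher in ES–HLB cells (1.69) and did not pass in ES–FLB cells (0.48, adjusted p = 0.0625). Slc2a1, a glucose transporter, and Pdk1, which restrains pyruvate oxidation, were lower by more than 2-fold in ES–FLB cells (-1.55 and -1.38) and did not pass in ES–HLB cells (-0.04 and 0.05, adjusted p = 0.816 and 0.852). All 4 genes lower against early FLBs were lower by 2-fold, and 0 of the 3 higher ones were higher by 2-fold. Of 10 glucocorticoid targets, a list also relevant to Ddit4, 5 were higher and 3 lower, and 5 higher and 5 lower. Sgk1 was higher (1.23 and 1.14) and Zbtb16 lower (-2.15 and -1.27). The cultures held hydrocortisone, and the part of hypoxia or hydrocortisone in the level of Ddit4 was not tested. Of 13 mTORC1 regulators, 7 were higher and 6 lower, and 5 higher and 2 lower. The paralog of Ddit4, Ddit4l, had 24.2 ± 1.8 CPM in ES–FLB cells against 1.56 ± 0.29 in early FLBs (3.59) and 25.8 ± 1.3 against 1.40 ± 0.16 in the hindlimb type (3.80). Apart from those given as not passing, and from Amt and Aldh1l1 (adjusted p of at most 0.00509), each of these named differences passed the test by limma at an adjusted p of at most 0.00013.

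**Figure D5:**
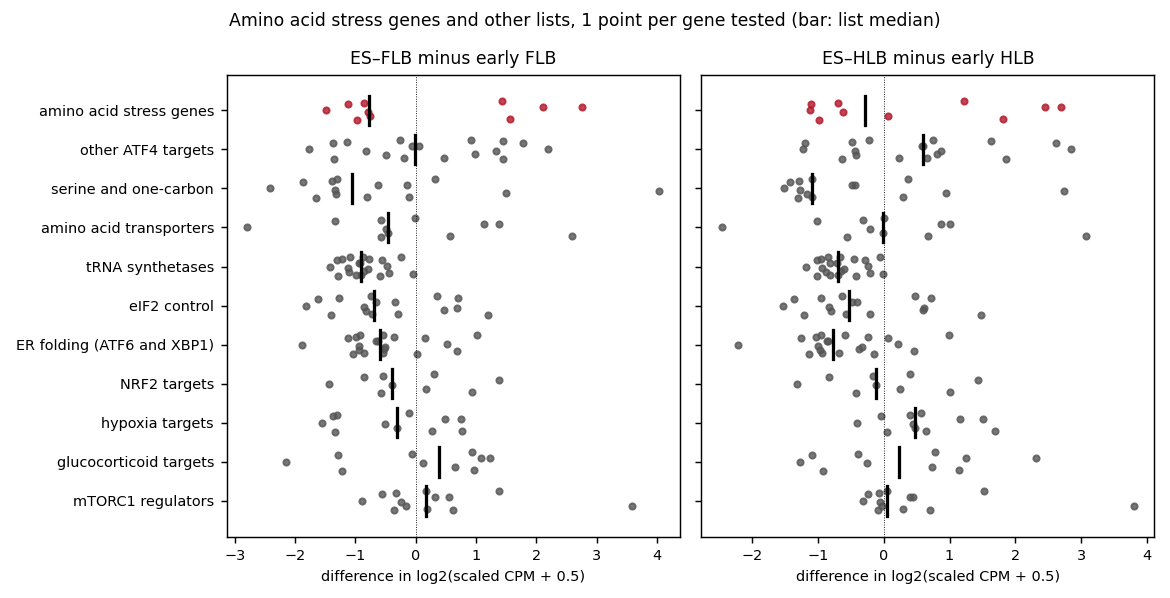
Difference in log2(scaled CPM + 0.5) between ES–LB cells and early limb buds for the 10 amino acid stress genes (red) and 10 other lists (grey), 1 point per gene tested, with the list median as a bar. The list of tRNA synthetases, which also holds Xpot, lies almost wholly left of 0 (medians -0.91 and -0.69). The 10 genes fall into a group right of 1 (Chac1, Trib3, Ddit3, Ddit4) and a group at or left of 0.06.

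Among 9788 other genes at 10 CPM or more, those closest to the mean standardized profile of the 10 over the 9 group means were Trub2 (Pearson r 0.988), Farsa (0.987), Mphosph6 (0.978), Gtpbp10 (0.976) and Nup93 (0.976). Since 6 of the 10 genes were high in early limb buds and 4 in ES–LB cells, this mean profile describes neither group alone.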

How the data were processed

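Levels of RNA were taken from 26 of 27 libraries. The authors made stranded mRNA libraries (single-end reads), aligned them to mm10 with HISAT2 2.0.4, counted reads per gene with Cuffdiff, and used edgeR 3.16.2 and FastQC 0.11.5, per the methods and the submitters' processing notes. They deposited CPM, which sum to 1000000 in each library and were not treated as counts in the main test. Reads estimated from them served for the depths, the interval on Chac1 and the voom alternative. The strand setting of the counting is not given in the sources used here. Groups and replicates came from the labels. Depth was estimated from the spacing of low values, and such depths and intervals cover counting error only, since reads without molecular identifiers are not independent molecules. The floor of 3 reads was 0.136 to 0.541 CPM in the libraries used.

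Libraries were scaled by an unweighted trimmed mean of log ratios (30% and 5% trimmed). Genes with at least 1 CPM in at least 3 libraries were fitted on log2(scaled CPM + 0.5) in 1 model of 9 groups with limma 3.58.1 (trend, robust) (R 4.3.3). Adjustment was by the Benjamini-Hochberg method over all 14438 genes, and adjusted p-values below 0.05 were called. The script was tested on simulated data in which few genes changed. Most genes differed between ES–LB cells and limb buds, so that test does not check the scaling there. There were 13 comparisons of limb types, stages, tissues and ES–LB cells. Alternatives changed the scaling, filter, pseudocount, samples, weights and threshold. The members and lists were chosen with earlier results of these data known. Named genes beyond the 10 were, per list, among the 4 with the largest differences from early limb buds at 10 CPM or more, and the 5 of most similar profile. Positions, promoter windows and overlaps are from RefSeq and GENCODE (GRCm38). Python 3.11.15, pandas 2.3.3, scipy 1.17.1 and matplotlib 3.10.9 served for the rest.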

Additional observations from a re-analysis of the deposited data

Results flagged for a closer look

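The difference between hindlimb and forelimb type changed between ES–LB cells and early limb buds by a test of that change itself for Slc7a11 (0.82 on the log2 scale), Psat1 (0.39) and Shmt2 (0.37), with the adjusted p-values given above. The early FLBs may have been younger than the early HLBs, as said above. Slc7a11 kept its call under every alternative run. With E10.5 limb buds in place of the early ones Shmt2 (-0.29) and Psat1 (-0.30) turned, and Shmt2 lost its call at the threshold of 0.001 and kept it under the other alternatives, while Psat1 lost it in the further cases named above. Groups of 3 libraries are too small for a test of single outlying libraries, and none was made.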

How the results depend on the processing

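Of 75 differences of the 10 genes that passed the test, 2 changed direction, Shmt2 (-0.288) and Psat1 (-0.304) in the change of the limb type difference once E10.5 limb buds took the place of the early ones, a setting chosen after seeing the data that gave 2 of the 10 genes higher and 2 lower there (Shmt2 and Atf4). None of the others changed direction under any alternative, and 61 kept their call and direction under every alternative other than the stricter threshold of 0.001. Counts of the 10 genes against limb buds from ES–LB cells moved by at most 1.5 times in every setting. CPM as deposited gave 1 higher and 1 lower between early limb types, 3 higher between E10.5 limb types, 2 higher from early to E10.5 FLBs and 1 lower in TB. Median-of-ratios scaling gave 1 higher and 1 lower between early limb types, and a pseudocount of 1 gave 1 lower there. A fit of only the groups compared gave 1 lower in ES–HLB against ES–FLB cells, 1 higher between early limb types, 1 higher in BA and 1 lower in TB, and the left-out library, when kept with its lost values missing, gave 1 higher between early limb types. The threshold of 0.001 gave 1 higher in ES–HLB against ES–FLB cells, 0 lower between early limb types, 3 higher and 0 lower between E10.5 limb types, 0 lower in BA, 1 higher in Ca, 0 lower in TB and 1 higher for the change of the limb type difference. Voom weights, chosen after seeing the data, gave 1 lower in ES–HLB against ES–FLB cells, 1 higher and 1 lower between early limb types, and 0 lower between E10.5 limb types, in BA and in TB. The cause of these moves was not tested.

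Leaving out 1 library gave 0 to 1 higher and 0 to 1 lower in BA, 3 to 5 higher and 0 to 1 lower between E10.5 limb types, 0 to 1 higher and 1 to 2 lower between early limb types, and 0 to 2 lower in TB. Slc7a11 in ES–HLB cells against early HLBs ranged from -0.030 to 0.153. Without 1 of the E10.5 HLBs the lone library is assumed to vary like the other groups. Deviations of same-numbered replicates from their group means correlated weakly, at -0.087 to 0.126 over the comparisons, and were not over 0.1 in every pair of any comparison, so the numbers were not taken to pair the samples. In ES–HLB and ES–FLB cells each same-numbered pair was positive (0.037 to 0.068) and each other pair negative (-0.045 to -0.010), a hint from the data and not from the design, and BA and Ca against E10.5 FLBs showed the same order. With a replicate block 3 genes were higher in ES–HLB than in ES–FLB cells (Psat1 was added, 0.23) and 5 lower in ES–HLB cells than in E10.5 HLBs (Asns was added, -0.20). Of the values above 0, 93.1% to 99.1% per library came out as whole reads within 0.05 reads, and the smallest were fractions of a read. The planned quasi-likelihood count test was not run on them, and limma with voom weights on these reads stands in its place (11349 genes called in ES–FLB cells against early FLBs, where 11076 were called without weights). At the depth of the E10.5 limb buds Chac1 and Trib3 rest on few reads.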

Other observations

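The left-out library, replicate 2 of the E10.5 HLBs, was at 0 CPM for Asns (chromosome 6), as for 499 of the 501 genes there that exceeded 2 CPM in the other replicates of that group. Because its CPM are spread over fewer genes, its deposited values for Atf4 (316 CPM), Psat1 (260.3), Phgdh (347), Shmt2 (183), Ddit4 (89.6) and Slc7a11 (24.0) exceeded those of replicates 1 and 3, which were for example 211 and 198 CPM for Atf4. Chac1 stood at 1.37, Trib3 at 1.37 and Ddit3 at 5.46 CPM in it.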
